A study of Mus musculus with 2 samples.

Results

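The TRIM genes encode tripartite motif proteins, most of which are ubiquitin ligases. Members were taken as every gene whose symbol is Trim followed by a digit and which has at least 1 protein-coding transcript in the annotation. This gave 68 genes out of 22015 protein-coding genes of the nuclear genome and 55536 annotated genes. A further symbol of this form, the pseudogene Trim30e-ps1, has no such transcript and had 0 expected counts in both libraries.

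A typical TRIM protein carries a RING domain, which recruits a ubiquitin-loaded conjugating enzyme, then 1 or more B-box domains and a coiled coil through which the proteins pair. Some members, such as TRIM14, TRIM16 and TRIM44, lack the RING domain. The carboxy-terminal domain differs between members and selects the partner or substrate, most often through a PRY-SPRY domain. In macrophages the family is best known for its work in innate immunity. Several members attach ubiquitin chains to sensors and adaptors of viral nucleic acid, others restrain the NF-κB pathway, and relatives of the primate restriction factor TRIM5α act on retroviral capsids. Many of these genes are known targets of interferon.

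The RNA came from bone-marrow-derived macrophages, primary cells of C57BL/6J mice grown from marrow, 60 min after Lipid A, at 100 ng/ml, had been given. Lipid A is the moiety of bacterial lipopolysaccharide that activates Toll-like receptor 4. The nucleoplasm, which is the nuclear content apart from the chromatin pellet, supplied the RNA, and ribosomal RNA was removed. The data form 1 group of 2 biological replicates that share a donor label, so their spread may be mostly technical. Sex, age and the number of animals are not given in the labels. The input was 1 µg in replicate 1 but 500 ng in replicate 2, so the starting amount and the replicate cannot be told apart. An unstimulated library was not analysed here, so the values are levels after Lipid A and no gene is described as induced. In such bulk RNA, fewer cells of a type and less RNA per cell cannot be told apart.

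The gene tables held 21256531 expected counts in replicate 1 and 15643649 in replicate 2. A count of 0 allows up to 3 counts, which is 0.142 and 0.192 in CPM (counts scaled to library size), for counting error only. Levels are given as TPM, a share of the library corrected for transcript length. A gene is called detected below where its TPM was at least 1 in each library, and abundant where it was at least 10 in each. The median log2 ratio of TPM between replicate 2 and replicate 1 was -0.42 over protein-coding genes and -0.45 over the detected TRIM genes, so most TPM values below are lower in replicate 2. All 8 macrophage markers examined were abundant, with a summed TPM of 3481 and 3079. The T cell markers Cd3d, Cd3e and Cd3g were at 0 counts in both. None of the 3 markers each of B cells, neutrophils, erythroid cells, fibroblasts and dendritic cells was detected, and of the 3 megakaryocyte markers Pf4 was, at 27.4 and 37.6.

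The family split into a few abundant genes and a long tail. Of the 68 members, 29 (42.6%) were detected, against 39.2% of all protein-coding genes, and 11 (16.2%) were abundant, against 14.4%. Both shares were near those of all genes. The median TPM of the family was 0.705 in replicate 1 and 0.555 in replicate 2, against 0.28 and 0.22 for all protein-coding genes. On the log2(TPM + 1) scale this was 0.70 ± 0.09 against 0.32 ± 0.05 (SD, n = 2). Among detected genes, the medians were 3.25 ± 0.37 for the 29 members and 3.04 ± 0.24 for 8622 genes (SD, n = 2). Summed over the family, TPM came to 558 and 429, or 0.220% and 0.228% of the TPM of protein-coding genes. The 5 highest members held 58.2% and 59.1% of the family sum, and the same 5 genes, like the same 20, led in both libraries.

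Promoter sequences were examined beside the levels, since interferon-responsive genes often carry the interferon-stimulated response element (ISRE), which IRF and STAT transcription factors bind. Promoter windows from RefSeq on GRCm38.p6, which has the coordinates of mm10, reach from 250 bases before to 50 bases after a gene's start. They matched 53 of the 68 members. The ISRE core AAANNGAAA, searched on both strands, lay in the windows of 13 of these 53 members (24.5%), against 12.1% of all 27025 genes in the table. By window, the shares were 14 of 67 (20.9%) and 10.6%. Of the 13 members, 6 lie in a cluster on chromosome 7 in which some windows are near-copies. The other 7 are among 43 members with a window elsewhere. The windows below belong to members that the results turn on, with the matched letters in capitals and each read 5′ to 3′ along its gene. The first set, from the Trim30 genes, is shown because the printed stretches of these neighbouring genes differ at 1 of 59 bases. Trim30a lies at chr7:104465196-104465254 on the minus strand, and Trim30d at chr7:104507857-104507915 on the minus strand.
Trim30a: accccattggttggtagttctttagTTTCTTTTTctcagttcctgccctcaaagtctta
Trim30d: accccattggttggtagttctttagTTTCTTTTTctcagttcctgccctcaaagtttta
The match began 36 bases before the annotated start of Trim30a and 41 bases before that of Trim30d. Both hold the core as its reverse complement.

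The second set comes from Trim5, Trim12a and Trim12c, the mouse relatives of TRIM5α. Their printed stretches lie on the minus strand at chr7:104288122-104288180, chr7:104315466-104315510 and chr7:104353345-104353403. Over the first 40 bases, those of Trim12a differ at 0 bases from those of Trim5 and of Trim12c. Past these 40, the printed end of Trim12a matches that of Trim5 but departs from that of Trim12c.
Trim5: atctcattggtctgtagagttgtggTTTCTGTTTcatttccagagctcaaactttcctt
Trim12a: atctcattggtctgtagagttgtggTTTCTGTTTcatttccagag
Trim12c: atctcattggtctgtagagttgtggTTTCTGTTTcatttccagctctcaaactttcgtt
The match began 49 bases before the start of Trim5, 29 bases before that of Trim12c and 10 bases after that of Trim12a. A match describes these letters only and says nothing of whether a factor was bound.

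The third set shows members with a core in other surroundings. The stretches are Trim34a on the plus strand at chr7:104244442-104244486, Trim21 on the minus strand at chr7:102565453-102565493, Trim26 on the plus strand at chr17:36836961-36837025 and Trim56 on the minus strand at chr5:137116178-137116236. Trim21 and Trim26 each hold 2 overlapping matches.
Trim34a: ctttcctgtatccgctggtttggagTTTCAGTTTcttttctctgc
Trim21: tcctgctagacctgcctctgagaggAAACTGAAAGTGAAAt
Trim26: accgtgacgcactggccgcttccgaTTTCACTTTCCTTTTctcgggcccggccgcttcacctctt
Trim56: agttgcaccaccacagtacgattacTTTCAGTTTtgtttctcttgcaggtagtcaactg
The first match began 10 bases after the start of Trim34a, 14 bases after that of Trim21, 160 bases before that of Trim26 and 4 bases before that of Trim56.

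Trim30a was the highest TRIM gene, at 108 TPM in replicate 1 and 87.6 in replicate 2 (97.9 ± 14.7, SD, n = 2). Its protein restrains Toll-like receptor signalling by lowering the adaptor proteins TAB2 and TAB3. The value rested on 8797 and 6757 expected counts and put the gene at rank 407 and 354 among protein-coding genes. It lies on the minus strand of chromosome 7 from 104409025 to 104465193 (mm10). Transcript Trim30a-201, with 8 exons, held 93.1% and 93.2% of its TPM.

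Trim25, whose protein ubiquitinates the RNA sensor RIG-I, followed with a TPM of 64.1 and 50.04. It lies on chromosome 11 from 88999376 to 89020293, and its promoter window held no ISRE core. Trim26, whose protein has been described as a ligase for the transcription factor IRF3, had 58.6 and 51.6. Trim25 was above Trim26 in replicate 1 and below it in replicate 2, so these neighbours in the order do not differ beyond their spread.

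Trim30d, a relative of Trim30a, had a TPM of 48.6 and 31.5. Trim12a had 45.1 and 33.0. These genes also changed places between the libraries. A step below, Trim35 stood at 26.4 and 20.7, and Trim30c at 21.4 and 19.0, while Trim30a exceeded every other member in both libraries.

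Trim3, an NHL-repeat protein gene best known from neurons, had a TPM of 18.7 and 13.7. Trim21, the cytosolic receptor for antibody-coated pathogens, had 16.1 and 11.1. Trim34a had 15.7 and 10.1. These 3 genes overlapped in their ranges over the libraries, but within each library they kept the order Trim3, Trim21, Trim34a.

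Trim28, also called KAP1, the corepressor that KRAB zinc-finger proteins recruit, was at a TPM of 11.9 and 11.7 and had the lowest mean of the 11 abundant members. Just under that level, with at least 10 in replicate 1 alone, were 5 genes. Trim14, which encodes an adaptor of the mitochondrial antiviral protein MAVS, had 12.5 and 8.70, and its exons share 1356 bases with the opposite-strand gene Nans. Whether counting used the strand is not stated, so its level is uncertain. Trim56, an antiviral ligase gene, stood at 11.0 and 6.91, Trim36 at 10.4 and 7.04, Trim12c at 10.5 and 6.90 and Trim8 at 10.3 and 5.43.

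The 13 further detected members ran from Trim13 to Trim23. Trim13, a ligase gene of the endoplasmic reticulum membrane, had 8.97 and 6.29. Trim41 stood at 7.83 and 7.03. Trim24, a chromatin reader and nuclear receptor cofactor, was at 6.65 and 4.53, and Trim44 at 5.59 and 5.10.

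Below them came Trim39 (5.27 and 4.18), Trim11 (5.57 and 3.43), Trim33 (5.14 and 3.16), Trim27 (3.43 and 3.70), Trim5 (3.50 and 3.39) and Trim30b (2.78 and 2.04). Trim33 encodes a regulator of TGF-β signalling through SMAD proteins. Trim47 (2.15 and 1.86), Trim37 (1.66 and 1.11) and Trim23 (1.10 and 1.23) were nearest to the threshold from inside. Just outside it were Trim16, at 1.68 and 0.87, and Trim65, at 1.04 and 0.98.

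Including Trim16 and Trim65, 19 members lay under a TPM of 1 in at least 1 library but had 3 or more expected counts in at least 1. The others, in falling order of mean TPM, were Trim17, Trim68, Trim15, Trim32, Trim7, Trim2, Trim59, Trim62, Trim43c, Trim6, Trim45, Trim34b, Trim66, Trim69, Trim46, Trim75 and Trim29. Trim17, the highest of these, had a TPM of 0.74 and 0.63. Its exons overlap the histone gene Hist3h2a on the same strand over 708 bases, and its level is uncertain for that reason.

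The other 20 members had fewer than 3 expected counts in both libraries, 13 of them with 0 in both. They include genes known from striated muscle (Trim54, Trim55, Trim63 and Trim72), from neurons (Trim9 and Trim67), from erythroid cells (Trim10 and Trim58), from the early embryo and stem cells (Trim71) and from the gut (Trim31, Trim40 and Trim50). Also in this group were Trim38, Trim42, Trim43a, Trim43b, Trim52, Trim60, Trim61 and Trim80. These counts are those of the gene table, and a second quantification gave several of these genes reads.

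**Figure D1:**
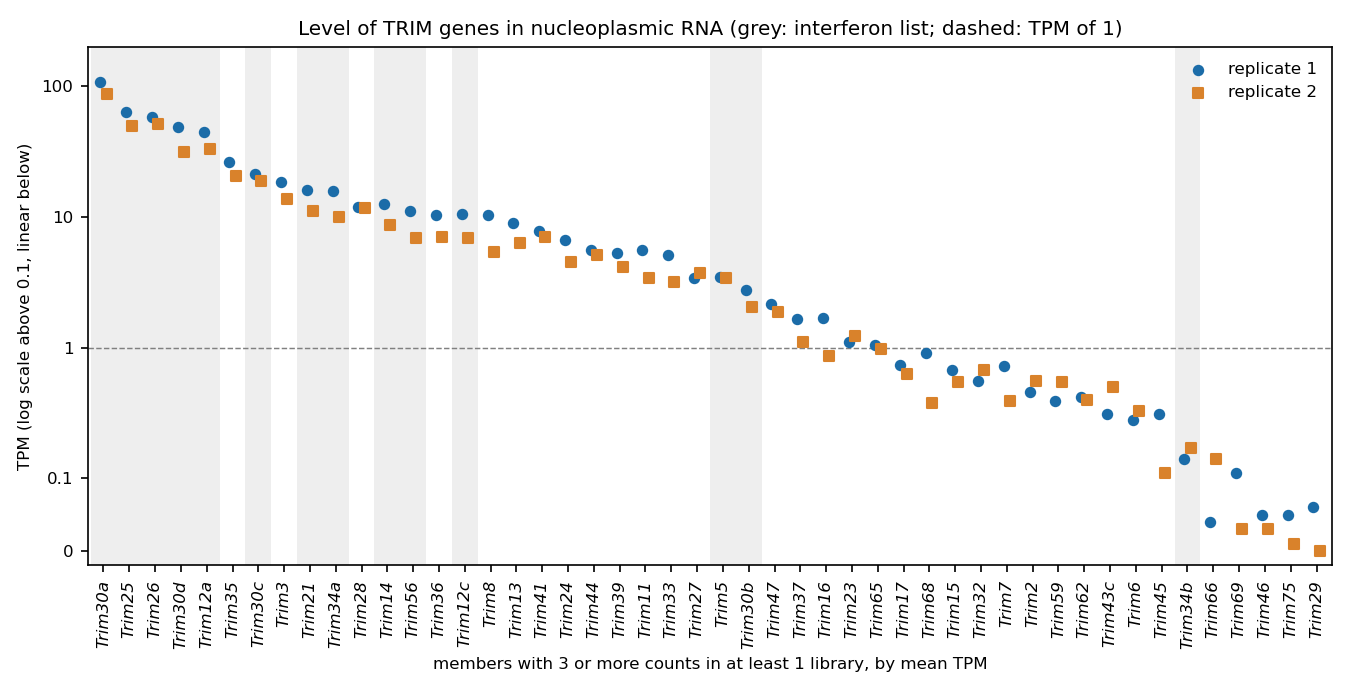
TPM of each of the 48 TRIM genes with 3 or more expected counts in at least 1 library (vertical axis, log scale above 0.1 and linear below), ordered by mean TPM, with circles for replicate 1 and squares for replicate 2; grey bands mark genes of the interferon list and the dashed line a TPM of 1. Levels fall from 108 and 87.6 for Trim30a to under 1, and 13 of the 15 interferon-list genes lie above the line in both libraries.

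Grouped by domain, the PRY-SPRY class held most of the abundant genes. Each member was put in only 1 class, and members with a COS box were classed by it, whatever domain follows. The members outside the PRY-SPRY class can thus include genes that also encode a PRY-SPRY domain. Of 38 PRY-SPRY members, 18 were detected, 9 were abundant, and 8 had under 3 counts in both. All of these 9 but Trim35 are on the list of interferon-responsive members described below. Every gene of that list but Trim56 is in the PRY-SPRY class. The class and the list are thus not independent, and the class difference was not computed apart from the list. Off the list, the abundant members were Trim35, of the class, and Trim3 and Trim28, outside it. The median log2(TPM + 1) of the PRY-SPRY class was 1.08 ± 0.20, against 0.20 ± 0.05 for the other 30 members, a difference of 0.88 ± 0.15 taken within each library (all SD, n = 2). It was 0.99 in replicate 1 and 0.77 in replicate 2. The size of this difference moved with the scale, to 1.61 in CPM without length correction and to 2.33 with 0.1 in place of 1 added to TPM.

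Of the PHD-bromodomain members, which include the chromatin reader gene Trim24, 3 of 4 were detected, the exception being Trim66 at 0.04 and 0.14. Of the 8 members with a COS box, a microtubule-binding region, only Trim36 was detected, and 6 had under 3 counts in both libraries. Among the 4 NHL-repeat members only Trim3 was, with Trim2 at 0.46 and 0.56, Trim32 at 0.56 and 0.67 and Trim71 at 0 counts. Of the 2 transmembrane members Trim13 was detected and Trim59 (0.39 and 0.55) was not.

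Trim23 ends in an ARF domain, Trim37 holds a MATH domain and Trim45 a filamin domain without NHL repeats. Of these, Trim37 and Trim23 were detected, and Trim45 was at 0.31 and 0.11. Among the 8 members with no named carboxy-terminal domain, Trim56, Trim8 and Trim44 were detected, and 4 had under 3 counts. No class was given to Trim80, which had 0 counts.

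A list of 15 members described as interferon-responsive in earlier work lay above the rest of the family. In it 13 members were detected and 8 were abundant, against 16 and 3 of the other 53. Its median log2(TPM + 1) was 3.76 ± 0.42 and that of the other members 0.43 ± 0.05, a difference of 3.34 ± 0.47 (all SD, n = 2). Per library the difference was 3.67 and 3.003. The exceptions were Trim34b, at a TPM of 0.14 and 0.17, and Trim38, with 1 and 0 counts. Over detected members alone the difference was 1.16. Every gene but Trim6 of the chromosome 7 cluster described below is on the list, the 5 abundant cluster genes included. The list and the cluster are thus not independent.

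Of the 14 interferon-list members with a promoter window, 10 held the ISRE core, against 3 of 39 other members (Trim2, Trim43a and Trim54). The 13 members with the core had a median log2(TPM + 1) of 3.29 ± 0.43, and the 40 without it 0.35 ± 0.04 (SD, n = 2). Detected were 9 of the 13 and 13 of the 40. The 15 members without a window enter neither group. They include the abundant Trim35 and Trim3 and the detected Trim14, Trim36, Trim8, Trim11 and Trim33. The core did not go with the level in every gene. Trim54 and Trim38 carried it at 0 counts and at 1 and 0 counts, while Trim25 reached 64.1 and 50.04 without it in the window. The interferon list and the core overlap in membership, so these descriptions are not independent.

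For the other motifs searched, on both strands as well, no more than 6 members had a match. The STAT motif TTCNNNGAA lay in 6 of 53 members (11.3%), against 9.55% of genes. The kappa-B consensus, which NF-κB binds, lay in 1 of 53 (1.89%), that of Trim43a, against 5.14% of genes. Trim43a had 1 and 0 counts.

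Of the 68 members, 16 lie on chromosome 7, and 10 of these form a cluster of 289 kb at chr7:104218793-104507849 (mm10), from Trim6 to Trim30d. The cluster held 45.9% of the family TPM in replicate 1 and 45.2% in replicate 2. Without length correction, in CPM, its share was 42.8% and 41.8%. In it, 8 of 10 genes were detected and 5 were abundant. The ISRE core lay in the windows of 6 of the 10, against 7 of 43 members with a window elsewhere and 12.1% of all genes with a window.

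Levels within the cluster were uneven. Trim6, at its first end, had a TPM of 0.28 and 0.33, and the next gene, Trim34a, on the same strand, had 15.7 and 10.1. Trim34b, the near-copy of Trim34a that lies between Trim12a and Trim12c, was at 0.14 and 0.17. Its neighbours Trim12a and Trim12c, on the opposite strand, stood at 45.1 and 33.0 and at 10.5 and 6.90.

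The Trim30 genes lie side by side at the other end. Their TPM ran from Trim30b (2.78 and 2.04) through Trim30c (21.4 and 19.0) to Trim30a (108 and 87.6), with Trim30d (48.6 and 31.5) beyond it. In both libraries their order was the same. Of these 4, the windows of Trim30a and Trim30d held the ISRE core and those of Trim30b and Trim30c did not, nor did those of Trim6 and Trim34b.

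**Figure D2:**
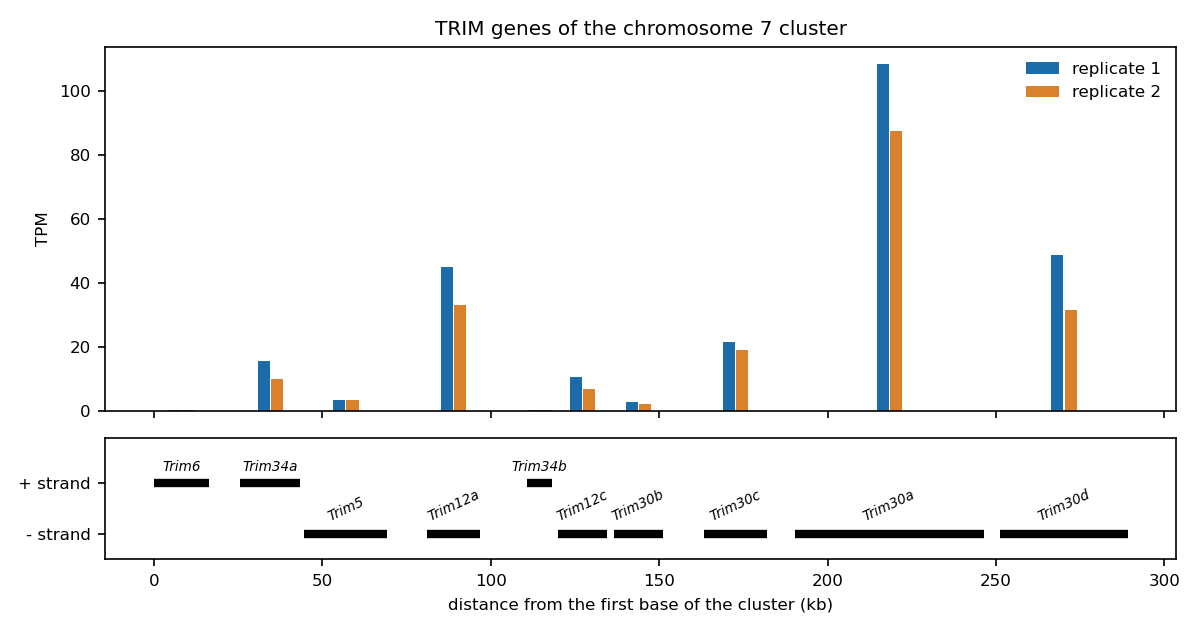
Upper panel: TPM (linear axis from 0) of the 10 TRIM genes of the chromosome 7 cluster, with a bar for each replicate at the middle of its gene; lower panel: the extent and strand of each gene, in kb from the first base of the cluster. Trim30a, at 108 and 87.6, is the highest, and Trim6 and Trim34b are too low to be seen at this scale.

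Elsewhere in the genome the members were scattered. Chromosome 11 held 11 members, of which 5 were detected, and chromosome 17 held 6, of which Trim26 and Trim39 were. None of the 6 members on chromosome 9 and none of the 4 on chromosome 8 was detected.

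Some of these values rest on reads shared between near-copies. Similarity was measured as stretches of 31 bases that occur in the annotated transcripts of both genes. Trim12c and Trim5 shared 1402 such stretches, which is 38.7% of those of Trim12c and 37.9% of those of Trim5. Trim34a and Trim34b shared 1276, or 48.7% and 69.0%. Trim43a, Trim43b and Trim43c shared between 895 and 1106 in each pair. Trim30a and Trim30d shared 348, or 8.53% and 9.19%. Trim47 and Trim65, neighbours on chromosome 11, share 225 exonic bases on the same strand. For the genes of these pairs the division of reads can depend on the quantifier, and their levels are uncertain to that extent.

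TPM was next split by the type of transcript, since nuclear RNA can hold transcripts that retain introns. Among the 29 detected members, 4 (13.8%) had over 50% of their TPM on transcripts not annotated as protein-coding in both, against 18.9% of 8622 genes. The share was below that of all genes, but only 17 of the 29 (58.6%) had any transcript of another type annotated, against 84.2% of all such genes. Over those 17, the median share was 29.2% in replicate 1 and 29.7% in replicate 2, against 33.0% and 32.4% for all genes with one annotated.

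In Trim26 these transcripts held 80.2% of TPM in replicate 1 and 79.4% in replicate 2. A processed transcript with 5 exons took 43.1% and 47.2%, and transcripts with a retained intron took 37.0% and 32.2%. In Trim28 the share was 72.7% and 79.4%, of which 52.1% and 47.8% lay on retained-intron transcripts. In Trim3 it was 69.7% and 66.0%, with a 2-exon retained-intron transcript at 34.5% and 33.1%.

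In Trim21 the share of 58.2% and 56.1% lay wholly on retained-intron transcripts. Trim12a was on both sides of the line, with 48.7% and 53.7%. Several of the most abundant genes had little or none: Trim30a had 6.88% and 6.82%, while Trim25 and Trim30d have protein-coding transcripts alone.

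In the second transcript table, described further on, 7 of the 29 members (24.1%) were over 50% in both libraries, against 32.3% of genes, with Trim12a, Trim24 and Trim37 in addition. Taken over expected counts in place of TPM, an alternative added after the values were seen, the shares of most of these genes fell. Trim26 kept its share, with 81.4% and 83.2%, and Trim12a had 56.4% and 56.7%. Trim28 had 31.5% and 38.6%, Trim3 28.0% and 25.4%, and Trim21 19.5% and 17.7%. By counts 2 of the 29 members (6.9%) were thus over 50% in both libraries, against 12.3% of the 8622 genes. By its construction, TPM gives a read on a shorter transcript more weight.

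**Figure D3:**
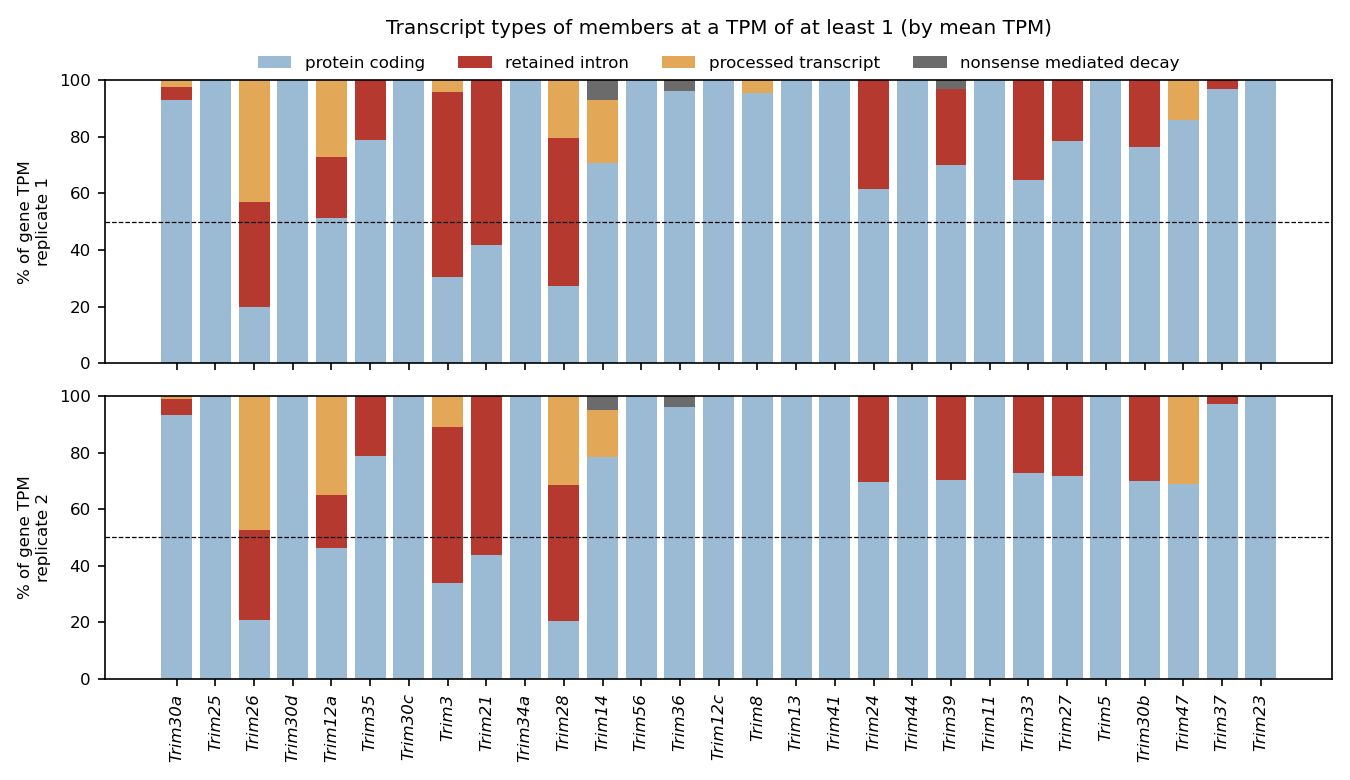
Percent of gene TPM (vertical axis, from 0 to 100) on each transcript type for the 29 detected TRIM genes, ordered by mean TPM, with replicate 1 above and replicate 2 below; the dashed line marks 50%. Trim26, Trim28, Trim3 and Trim21 lie under 50% protein-coding in both libraries.

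The replicates were compared on expected counts normalised by TMM, a scaling that takes most genes as level. At a mean count of at least 50, 0 of 33 members differed by more than 2-fold, against 119 of 10088 genes (1.18%). At so low a background share, 0 of 33 does not set the family apart. The median absolute log2 ratio was 0.18 for members and for all genes, and 15 members were higher in replicate 2 and 18 in replicate 1.

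Trim23 had the largest log2 ratio of replicate 2 over replicate 1, 0.66, from 90 and 101 expected counts. Trim17 followed with 0.49. Trim16 had -0.46 and Trim8 -0.44, both being lower in replicate 2. Trim65 had 0.35. The 5 most abundant genes lay closer, with Trim30a at 0.11, Trim25 at 0.15, Trim26 at 0.19, Trim12a at -0.18 and Trim30d at -0.22. The lower TPM of Trim30a, Trim25 and Trim26 in replicate 2 thus did not hold after normalisation of the counts, where all 3 were higher in replicate 2.

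**Figure D4:**
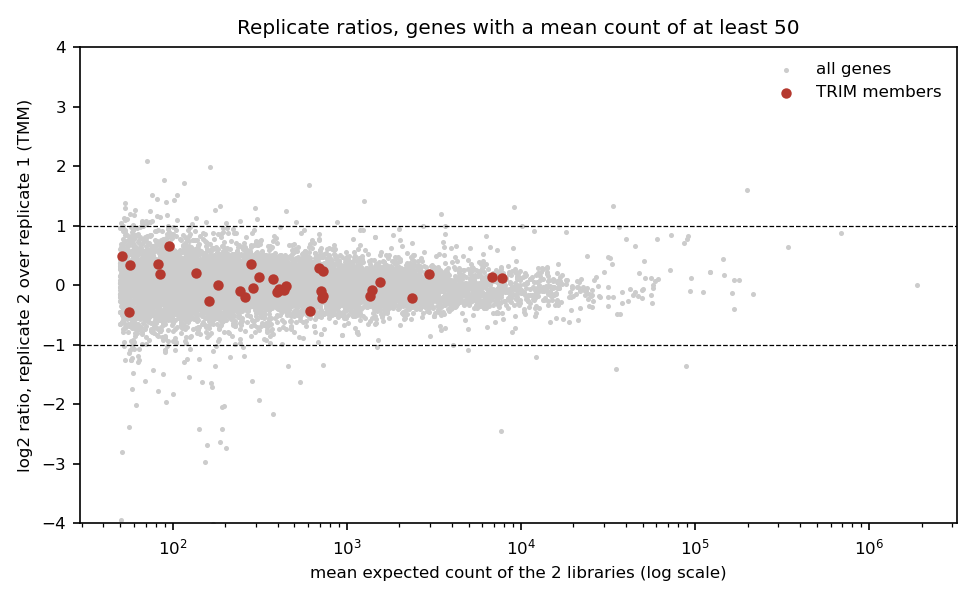
Log2 ratio of replicate 2 over replicate 1 after TMM normalisation (vertical axis) against mean expected count (horizontal axis, log scale) for genes with a mean count of at least 50; grey points are all genes, red points the 33 TRIM genes, and dashed lines mark 2-fold. All 33 red points lie between the lines, and 4 genes outside the family lie beyond the plotted range.

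Each library also came with a second transcript table from another quantification, which was summed per gene and, like the first, rescaled to protein-coding genes. Among the 29 members, 1 (3.45%) differed by more than 2-fold between the tables in both libraries, against 4.62% of 8622 genes. This was Trim30b, with 213 and 151 expected counts in the gene table and 1016 and 860 in the second table. Its log2 ratio was 1.52 and 1.53. In TPM the call depends on the rescaling, while the counts given here were not rescaled. Deposited TPM was lower in the second table for the most abundant members. Trim30a had 108 and 87.6 in the gene table against 47.2 and 53.0, and Trim25 64.1 and 50.04 against 31.1 and 33.5. With TPM as deposited, Trim30b had 2.78 and 2.04 in the gene table and 3.89 and 4.30 in the second, and 0 members were beyond 2-fold in both libraries, against 8.65% of genes. In the second table, 64.8% and 62.0% of its counts lay on the 4-exon protein-coding transcript Trim30b-201. Trim37 came next, at 0.84 and 0.88, and Trim12c had 0.22 and 0.67. Trim47 and Trim23 were lower in the second table, at -0.29 and -0.55 and at -0.38 and -0.55.

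Gaps of several-fold in counts also occurred among members that were not detected. Trim6 had 22 and 17 expected counts in the gene table but 367 and 366 in the second table, of which 76.1% and 79.5% lay on Trim6-201, a protein-coding transcript with 8 exons. Trim65 had 86 and 78 against 358 and 376, and Trim2 60 and 54 against 215 and 211. Each of these 3 genes had several times as many counts in the second table, in both libraries. The share of the cluster in the family TPM differed little, at 45.5% and 44.2% in the second table. Of their stretches of 31 bases, Trim30b shared 1.07%, Trim6 0.74%, Trim65 3.40% and Trim2 0.05% with other members. Among the near-copies, Trim34a, with 48.7% shared, had log2 ratios between the tables of -0.31 and -0.40. Trim34b, with 69.0% shared but few counts, had 0.87 and 1.34. Whether sharing bears on the gaps, and which quantification is nearer to the truth, was not tested.

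**Figure D5:**
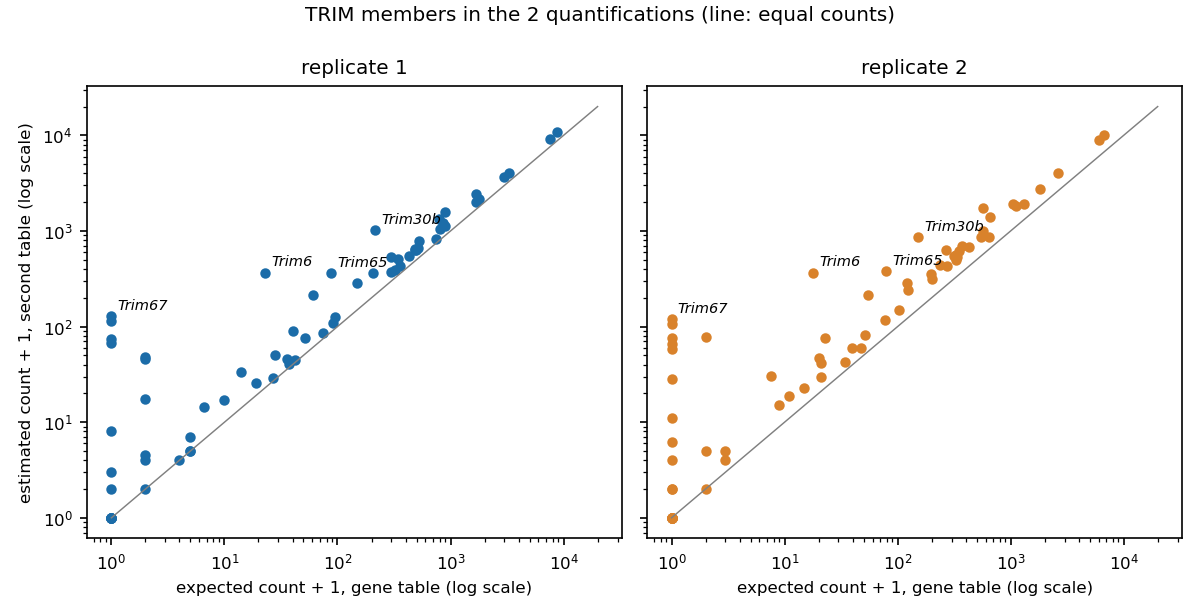
Estimated count + 1 in the second transcript table (vertical axis, log scale) against expected count + 1 in the gene table (horizontal axis, log scale) for the 68 TRIM genes, with replicate 1 on the left and replicate 2 on the right; the line marks equal counts. Abundant genes lie near the line, while Trim6, Trim65 and Trim30b lie above it and Trim67 has 0 counts in the gene table but 127 and 118 in the second.

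Some proteins with a tripartite motif have other names. Of 4 such genes, 3 were detected and 2 were abundant. Mid1, a microtubule-bound ligase gene, had 111 in replicate 1 and 45.0 in replicate 2, and its log2 count ratio of -1.01 was larger in size than that of any of the 33 members compared. It lay above Trim30a in replicate 1 and below it in replicate 2. Mefv, which encodes pyrin, was at 29.3 and 18.1, and Pml, which builds nuclear bodies, at 14.9 and 9.22. Mid2 was at 0.07 in both.

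RNA of all 12 genes in a list of ubiquitin-conjugating enzymes that RING ligases can work with was detected, and that of 6 was abundant. The shares of all protein-coding genes were 39.2% and 14.4%, and this list, like the others here, was chosen by hand. Ube2d3, of the family that most RING ligases can use, had 110 and 84.3. Ube2n, which makes lysine-63-linked chains, had 49.95 and 59.1, and Ube2d2a 44.4 and 34.4.

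In a list of innate signalling genes whose proteins are known as targets or partners of TRIM proteins, 14 of 14 were detected and 8 abundant. Ifih1, the gene of the RNA sensor MDA5, was far above every TRIM gene, at 429 and 453. The kinase gene Tbk1 had 88.2 and 52.0, and Tab2, the adaptor that Trim30a protein acts on, 61.7 and 48.6. In a list of chromatin partners of TRIM24, TRIM28 and TRIM33, 9 of 9 genes were detected, but only Chd3, a nucleosome remodeller gene, was abundant, with 32.3 and 19.8. Smad4 had 9.73 and 8.37 and Smad3 9.80 and 5.45.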

How the data were processed

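Nucleoplasmic RNA of 2 libraries of 1 group was analysed. Expected counts in the gene and first transcript tables, which need not be whole, were deposited by the authors without normalisation. TPM values were deposited by the authors in all tables and are length-corrected shares of a library. The FPKM values the authors deposited were not used. The second transcript table, with estimated counts and TPM as deposited by the authors, was summed per gene here. Assembly mm10 and GENCODE M21 are named per the file headers. The aligner, the quantifiers and use of strand stand as not given in the sources used here.

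Entries that name no mouse gene held 0.662% and 0.232% of the expected counts and were left out. Levels were summarised on the log2(TPM + 1) scale computed here from the deposited TPM. To compare replicates, rounded expected counts were scaled by TMM in edgeR 4.0.16 (R 4.3.3), with 0.5 added to each count. DESeq2 1.42.0 size factors served as another scaling. This comparison was tested on simulated data. Tables were handled in pandas 2.3.3 with numpy 2.4.6 and plotted in matplotlib 3.10.9. With 1 group, no test between groups and no p-value is possible.

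The members, the classes, the lists and the tests were chosen with earlier results of these data known. Genes named with values were the 20 members with the highest mean TPM, the 5 with the largest replicate ratios, the 5 with the highest share on other transcript types, the 5 with the largest ratios between quantifications, the highest of each class and the 3 highest of each pathway list. Members under 3 counts were named. Further members were named to account for all 68. Protein sequences were not used here, so similarity between members was taken from shared stretches of 31 bases in the annotated transcripts. Alternatives were the pseudocount, the filters, the unit, the second table, the normalisation and leaving out each replicate.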

Additional observations from a re-analysis of the deposited data

Results flagged for a closer look

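In all, 9 TRIM genes had fewer than 3 expected counts in both libraries of the gene table but over 3 in both libraries of the second transcript table. The share of all genes that meet this rule is not given here, so the count is not read as a trait of the family. The levels above do not use that second table. Estimated counts there, in replicates 1 and 2, were 127 and 118 for Trim67, all on the 10-exon protein-coding transcript Trim67-202, and 113 and 106 for Trim71. They were 72.6 and 77.4 for Trim63, of which 46 and 56 lay on the 2-exon retained-intron transcript Trim63-203. Trim52 had 65.8 and 75.4, nearly all on its 2-exon processed transcript Trim52-202. For Trim9 they were 47.2 and 65.4, for Trim43b 45.0 and 57.0, for Trim50 16.4 and 27.6, for Trim58 7.07 and 10.04 and for Trim43a 3.51 and 5.25. Of the 9 genes, 2 have exons over a gene on the opposite strand and 1 over a gene on the same strand. The other 11 members under 3 counts in the gene table had at most 3 there, to the nearest whole count. The cause was not tested.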

How the results depend on the processing

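With 2 libraries of 1 group, no spread between animals was measured. No paired analysis was possible because there is 1 group. Counts of detected members lay between 26 and 34 over thresholds of 0.5 and 2, the second table and single libraries. The family median of log2(TPM + 1), 0.70, had the opposite sign with 0.1 added in place of 1 (-0.46), which follows from medians under a TPM of 1. It was 3.25 with members at a TPM of at least 1, 1.63 in CPM and 1.95 with TPM rescaled over protein-coding genes, and 0.64 to 0.77 in single libraries. The PRY-SPRY difference was 2.33, 0.64, 1.61 and 1.87 under the same 4 settings, and 0.77 to 0.99 in single libraries. The interferon-list difference was 4.84, 1.16, 4.28 and 4.50, 2.61 in the second table, and 3.003 to 3.67 in single libraries. Both differences kept their direction under every setting tried. The share of the 5 highest members was 54.1% in the second table, 63.7% in CPM and 58.2% to 59.1% in single libraries.

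Without a filter on counts, 11 members differed beyond 2-fold between the replicates in place of 0, and this setting includes genes of a few reads. Members with over 50% of TPM on other transcript types numbered 4, 7 in the second table (Trim12a, Trim24 and Trim37 in addition), 2 by counts and 5 in either single library. Beyond 2-fold between quantifications was 1 member, 0 with TPM as deposited, 12 without a filter and with 0.1 added, and 1 to 2 in single libraries. For the counts without a filter, 11 and 12, the shares over all genes are not given here. Those counts are thus not read as traits of the family. Where no cause is named here, the cause was not tested. Members under 3 counts in the gene table are at its counting limit, and 9 of them had over 3 counts in both libraries of the second table.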
